A study of Mus musculus with 4 samples.

Results

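Kupffer cells are the macrophages that reside in the sinusoids of the liver, and they are known by a set of genes, not all of them particular to these cells. Here 9 genes of this set were followed: Clec4f, Vsig4, Timd4, Marco, Cd5l, Cd163, Folr2, Slc40a1 and Hmox1. They were chosen by name, as genes of Kupffer cell identity, among 28889 genes counted in the 3 libraries with a deposited count matrix, and were read in macrophages and monocytes, counting the cells that held 2 or more of them. All 9 were listed in every library.

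In mouse liver, Kupffer cells take up bacteria, dead cells, haemoglobin and worn-out red blood cells from the blood. Their gene programme is kept up by signals from neighbouring sinusoidal endothelial cells, stellate cells and hepatocytes. Monocytes that enter the liver can acquire parts of it, some genes earlier than others: Clec4f is acquired readily, whereas Timd4 is used as a marker of long-resident cells. Slc40a1 and Hmox1, which handle iron and haem, are also used by macrophages of other organs and by other cells.

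The tumours were hepatocellular carcinomas of male C57BL/6 mice, 18 weeks old. They had been raised 10 weeks earlier by injecting plasmids hydrodynamically into the tail vein: pT3-EF1α-AKT, pT3-EF1α-c-MYC and the SB100X transposase, which places the plasmid inserts in the genome of the hepatocytes reached. KLF2 tumours also received pT3-EF1α-KLF2, a plasmid for the transcription factor KLF2, and vector tumours received the pT3 empty vector, so both groups carry c-MYC and AKT. The EF1α promoter that drives the transgenes is active in most cell types, and the injection is known to reach mainly hepatocytes. Tumours of 2 mice per group were digested for 30 min and processed one mouse at a time with a droplet kit. Count matrices of 2 KLF2 libraries and of 1 vector library (replicate 2) were used, and the matrix of vector replicate 1 was not analysed here. Each comparison of the groups therefore rests on 1 vector tumour, and its spread comes from the 2 KLF2 tumours alone.

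The vector library stood apart from the KLF2 libraries in quality. Median UMIs (unique molecular identifiers, one per captured transcript) per barcode were 8784 and 5724.5 in the KLF2 libraries and 2373 in the vector library, and median mitochondrial shares were 0.227% and 0.350% against 16.3%. Filtering left 6209 and 11103 cells of the KLF2 libraries and 8403 of the vector library, where 34.6% of barcodes were removed. Over all cells kept, Klf2 itself was at 338 and 406 CPM in the KLF2 libraries and at 389 CPM in the vector library. CPM is the gene's UMIs in every 1000000 UMIs of the cells summed. These sums did not separate the groups, but they were taken over different mixes of cells. In the clustering below, cells left unnamed outside the myeloid family numbered 4842 and 7071 in the KLF2 libraries and 3 in the vector library. T/NK-like cells numbered 93 and 398 against 3475, and endothelial-like cells 95 and 245 against 1854. The part of this makeup in the Klf2 sums was not tested. In macrophage-like cells Klf2 was at 430 and 547 CPM in KLF2 tumours and at 142 CPM in the vector tumour. Whether these counts include transcripts of the transgene is not given in the sources used here.

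Cells were clustered without the 9 genes and named from fixed markers. Macrophage-like cells numbered 442 and 1209 in the KLF2 libraries and 410 in the vector library, and all 10 macrophage markers (C1qa, Csf1r, Adgre1 and others) were detected in each. Monocyte-like cells numbered 50 and 133 in the KLF2 libraries and 65 in the vector library, with all 12 monocyte markers (Ly6c2, Ccr2, Plac8 and others) detected. The classes were named from the levels of these same markers. Each list was also detected in full in the other class, so detection alone does not separate the classes. A further 37 and 213 myeloid cells of the KLF2 libraries and 1240 of the vector library stayed unnamed, so most of the 1757 vector myeloid cells are outside the named classes. Median UMIs per macrophage-like cell were 9735.5 and 4836 in KLF2 tumours and 4365 in the vector tumour. Libraries were clustered together without a correction for library differences, and the macrophage-like class fell into different sub-clusters in the groups. In this split, differences between libraries and between groups cannot be told apart. Of the 410 vector cells, 408 lay in a sub-cluster led by Cxcl9 and Gbp2 that held no KLF2 cell, and the KLF2 cells lay in sub-clusters led by Ccl12, by Ccl8, by Mmp12 and Spp1, by Saa3 and Slpi, by Lrmda, or by Fcna and C6.

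The genes lie on 7 chromosomes (GRCm38, GENCODE M21): Clec4f at chr6:83644542-83656187, Vsig4 at chrX:96247203-96293438, Timd4 at chr11:46810800-46844332, Marco at chr1:120474538-120505024, Cd5l at chr3:87357881-87371073, Cd163 at chr6:124304656-124330527, Folr2 at chr7:101839988-101857194, Slc40a1 at chr1:45908068-45926523 and Hmox1 at chr8:75093621-75100589. Only Folr2 overlaps other annotated genes, the antisense Gm10602 and the pseudogene Gm45319, and whether the counting used strand is not given in the sources used here. RefSeq promoters (GRCm38.p6, 250 bases before to 50 after the start) were on hand for 7 of the 9 genes, with 2 entries for Folr2. The GC-rich box CCACCC or its reverse complement GGGTGG, which KLF family factors are known to bind, was found in 6 of these 8 promoters, those of Clec4f, Timd4, Marco, Cd5l and Folr2, and in 31.5% of 32851 promoters of all genes. Those of Clec4f, Timd4, Cd5l and Cd163 are shown, with that box in capitals, because at least 80.7% of the transcripts of each in KLF2 macrophage-like cells lay in the same 31 and 68 cells, described further on. The promoters are Clec4f chr6:83656067-83656366 on the minus strand, Timd4 chr11:46810549-46810848 on the plus strand, Cd5l chr3:87357631-87357930 on the plus strand and Cd163 chr6:124304401-124304700 on the plus strand. That of Cd163 holds no such box.
Clec4f: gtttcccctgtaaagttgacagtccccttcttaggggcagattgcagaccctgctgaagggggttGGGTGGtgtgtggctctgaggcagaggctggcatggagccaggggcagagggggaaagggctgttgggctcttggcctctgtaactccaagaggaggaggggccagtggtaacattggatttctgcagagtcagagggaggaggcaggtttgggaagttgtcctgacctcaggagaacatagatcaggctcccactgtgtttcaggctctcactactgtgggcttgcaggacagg
Timd4: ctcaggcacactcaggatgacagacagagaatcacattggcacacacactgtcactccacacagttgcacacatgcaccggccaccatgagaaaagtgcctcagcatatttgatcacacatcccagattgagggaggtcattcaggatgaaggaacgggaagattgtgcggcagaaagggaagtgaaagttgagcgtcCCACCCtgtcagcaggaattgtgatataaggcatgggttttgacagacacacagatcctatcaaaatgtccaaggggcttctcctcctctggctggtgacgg
Cd5l: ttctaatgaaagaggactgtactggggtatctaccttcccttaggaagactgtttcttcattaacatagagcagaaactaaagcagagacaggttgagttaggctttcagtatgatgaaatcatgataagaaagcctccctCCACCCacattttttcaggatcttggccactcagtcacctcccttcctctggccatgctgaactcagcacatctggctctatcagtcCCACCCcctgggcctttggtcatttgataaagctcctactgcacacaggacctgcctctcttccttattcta
Cd163: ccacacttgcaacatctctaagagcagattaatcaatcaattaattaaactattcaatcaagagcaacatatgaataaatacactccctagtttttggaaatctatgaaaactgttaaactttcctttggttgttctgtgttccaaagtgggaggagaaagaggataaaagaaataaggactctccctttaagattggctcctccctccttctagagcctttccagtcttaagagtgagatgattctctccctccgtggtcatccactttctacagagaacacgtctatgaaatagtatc
The half-site TGCTGA of MAF factors was found in 6 of the 8 promoters (Clec4f, Timd4, Vsig4, Cd5l and both of Folr2) and in 19.5% of all. The core GAGGAA of PU.1 was in 3 (Marco, Vsig4 and Cd5l) and in 28.3% of all, its longer form GAGGAAGT, which contains that core, in 0 and in 3.20%, and the antioxidant response core TGACNNNGC in 2 (Clec4f and one of Folr2) and in 12.4%. The E-box CACGTG was in 0 of the 8 and in 7.15% of all, and the liver X receptor element of the DR4 type in 0 and in 0.0152%. Both strands were searched, and a match is a run of letters, not a shown binding site.

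In macrophage-like cells of KLF2 tumours the 9 genes stood above the level of the vector tumour in both libraries, and 7 of the 9 passed the test: Marco, Hmox1, Cd163, Folr2, Vsig4, Cd5l and Slc40a1 were higher. The same test called 19.8% of 13034 genes, 12.5% higher and 7.27% lower, and 60.9% of all tested genes had both KLF2 libraries above the vector library. The median log2 fold change was 2.36 over the 9 genes and 0.15 over all tested genes. Counts were summed per library and compared with edgeR's quasi-likelihood test, adjusted over all genes by Benjamini-Hochberg. In sums of this kind, fewer cells that carry a transcript and less transcript per cell cannot be told apart. The next paragraphs give each gene, then which cells carried them.

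**Figure D1:**
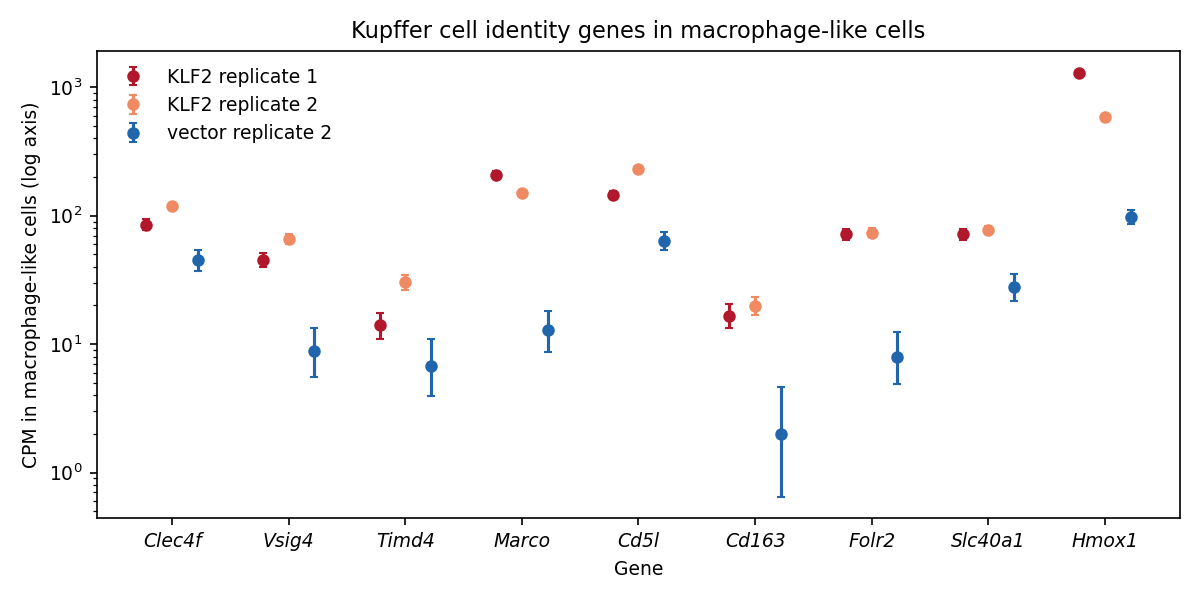
Level of each of the 9 genes in macrophage-like cells, in CPM on a log axis, in KLF2 replicates 1 and 2 and vector replicate 2. Points are the summed counts of 442, 1209 and 410 cells with exact 95% Poisson intervals (counting error only). Both KLF2 points lie above the vector point for each gene, from Hmox1 with 1285 and 589 CPM against 98.5 CPM to Clec4f with 85.4 and 118.5 CPM against 44.9 CPM.

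Among surface receptors of resident cells, Clec4f, a C-type lectin used in the mouse as a Kupffer cell marker, was at 85.4 and 118.5 CPM in KLF2 macrophage-like cells and at 44.9 CPM in vector cells. The intervals did not overlap, but the log2 fold change of 0.89 ± 0.33 (SE) had an adjusted p of 0.0826. Timd4, a phosphatidylserine receptor that takes up dying cells, was at 14.0 and 30.2 CPM in KLF2 cells and at 6.81 CPM in vector cells. The KLF2 replicates differed from each other by more than their counting intervals, and the log2 fold change of 1.42 ± 0.53 had an adjusted p of 0.0860. Vsig4, a complement receptor that clears opsonised particles, was at 45.5 and 65.9 CPM in KLF2 cells and at 8.81 CPM, 22 UMIs, in vector cells. Its log2 fold change was 2.36 ± 0.40 with an adjusted p of 0.00286.

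Among scavenger receptors and secreted factors, Marco, which binds bacteria and particles, was at 209 and 151 CPM in KLF2 cells and at 12.8 CPM in vector cells. Both KLF2 libraries were far above the vector library, with a log2 fold change of 3.50 ± 0.39 and an adjusted p of 0.000277. Cd163, the receptor for haemoglobin bound to haptoglobin, was at 16.7 and 19.9 CPM in KLF2 cells and at 2.00 CPM, 5 UMIs, in vector cells. The log2 fold change was 2.88 ± 0.51 with an adjusted p of 0.00359. Folr2, the folate receptor beta of tissue macrophages, was at 71.7 and 74.0 CPM in KLF2 cells and at 8.01 CPM in vector cells. The KLF2 replicates lay within each other's counting intervals, and the log2 fold change was 2.88 ± 0.36 with an adjusted p of 0.000519. Cd5l, a secreted protein that keeps macrophages alive and modulates lipid synthesis, was at 146 and 232 CPM in KLF2 cells and at 63.7 CPM in vector cells. It was also higher, by a log2 fold change of 1.27 ± 0.37 with an adjusted p of 0.0345.

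Of the iron and haem genes, Slc40a1, which encodes ferroportin, the exporter that returns iron to the blood, was at 71.5 and 77.6 CPM in KLF2 macrophage-like cells and at 28.0 CPM in vector cells. Its log2 fold change was 1.11 ± 0.30 with an adjusted p of 0.0274. Hmox1, the inducible haem oxygenase that breaks haem down to iron, biliverdin and carbon monoxide, was at 1285 and 589 CPM in KLF2 cells and at 98.5 CPM in vector cells. The log2 fold change was 2.94 ± 0.49 with an adjusted p of 0.00264. Hmox1 made up 66.1% and 43.3% of the UMIs of the 9 genes in KLF2 macrophage-like cells and 36.0% in vector cells, so a sum over the 9 genes is in large part Hmox1.

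These fits have 1 residual degree of freedom, from the KLF2 replicates. Over 9 tested changes of scaling, test, filter, depth and clustering within this class, Marco, Vsig4, Folr2 and Hmox1 were called in 9, Cd163 in 8, Cd5l and Slc40a1 in 5, and Clec4f and Timd4 in 1 each, with at most 10% mitochondrial UMIs. After thinning each cell to 1000 UMIs, only Marco, Vsig4, Folr2 and Hmox1 of the 9 were called, where 10.1% of 5682 tested genes were higher and 7.39% lower. Other choices of myeloid cells were made after seeing the data. With all myeloid cells, named or not, the sums took in 1240 unnamed vector cells and 37 and 213 unnamed KLF2 cells. Of these vector cells, 791 lay in a sub-cluster led by Igkc and Igha, with Clec4f at 2.05 CPM. All 9 genes then had a positive log2 fold change, Clec4f 1.79 ± 0.29 and Timd4 1.49 ± 0.40. The part of cell makeup in these values was not tested. Leaving out sub-clusters, given further on, moved the calls in both directions.

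In monocyte-like cells the genes were close to undetected except for Hmox1. Vsig4, Timd4 and Cd163 had 0 UMIs in both KLF2 libraries, and Timd4, Marco, Cd5l, Cd163, Folr2 and Slc40a1 had 0 UMIs in the vector library, where a count of 0 allows up to 9.84 CPM. The highest of the other counts was 3 UMIs, of Marco in KLF2 replicate 2. Hmox1 was at 163 and 72.2 CPM in KLF2 monocyte-like cells and at 72.2 CPM in vector cells. Of the 65 vector monocyte-like cells, 63 lay in a sub-cluster led by Hba-a1, Hbb-bs, Ly6c2 and Hba-a2. Erythroid markers summed to 0 and 33.1 CPM in the KLF2 monocyte-like cells (0 and 5 of 5 detected). In the vector ones they summed to 722 CPM (4 of 5, Alas2 at 0), and their part in the Hmox1 level was not tested. Replicate 1 lay above the vector library's counting interval and replicate 2 at its level, and the log2 fold change of 0.42 ± 0.43 had an adjusted p of 0.606, in a fit that called 8.61% of 3973 genes, 5.11% higher and 3.50% lower. In that fit 51.3% of genes had both KLF2 libraries above the vector library. The group effect on Hmox1 was 2.44 larger on the log2 scale in macrophage-like than in monocyte-like cells. The fit that gave this treated the class sums of a tumour as independent and held 1 vector tumour. It cannot decide whether the effects differ. With both classes summed, 8 of the 9 genes were higher in KLF2, where 21.5% of 13214 genes were called, 13.7% higher and 7.83% lower. Clec4f had an adjusted p of 0.0493 and Timd4 of 0.0567, and both calls changed with the setting: Clec4f was called in 4 of 9 alternatives (adjusted p 0.0108 to 0.177) and Timd4 in 3 of 9 (0.00262 to 0.435). Thinned to 1000 UMIs, 4 of the 9 genes were called higher, where 10.2% of 6249 genes were.

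For Clec4f, Timd4, Cd163, Cd5l, Vsig4 and Slc40a1, most transcripts of KLF2 macrophage-like cells lay in few cells. A sub-cluster of 100 cells, 31 and 68 of the KLF2 libraries and 1 of the vector library, had as leading genes Apoc1, Fcna, C6, Hpgd, Cxcl13, Fabp7, Clec1b, Vcam1, Sema6d and Cdh5. Of these, 5 were on the fixed list of 15 other Kupffer cell genes (Fcna, C6, Hpgd, Fabp7 and Cdh5). It is called the Fcna/C6 sub-cluster here. It made up 7.01% (exact binomial 95% interval 4.81 to 9.81) and 5.62% (4.39 to 7.08) of macrophage-like cells in the KLF2 libraries and 0.244% (0.00617 to 1.35) in the vector library. The 9 genes were not used to form it, but genes that vary with them were, so their levels in it are a description. It was formed without a correction for library differences. All 10 vector cells picked further on for several of the genes lay outside it, so its vector share need not count all like cells.

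Clec4f in these cells was at 1789 CPM in KLF2 replicate 1 and 1571 CPM in replicate 2, and 98.5% and 91.6% of the Clec4f UMIs of macrophage-like cells were theirs. The shares were 93.3% and 88.2% for Timd4, 83.1% and 91.4% for Cd163, 80.7% and 85.0% for Cd5l, 70.8% and 90.1% for Vsig4, and 66.8% and 61.5% for Slc40a1. For Marco they were 48.3% and 84.9%, and for Folr2 29.2% and 56.0%. For Hmox1 they were 3.79% and 4.32%, below the sub-cluster's share of the cells. Summed over the 9 genes, 24.6% and 48.1% of the UMIs lay there. The 1 vector cell in it had 597 UMIs and none of the 9 genes.

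Each gene except Hmox1 was highest in the Fcna/C6 sub-cluster in both KLF2 libraries. Marco was at 2144 and 1857 CPM there, Folr2 at 446 and 599 CPM and Slc40a1 at 1016 and 690 CPM. Outside the Fcna/C6 sub-cluster the genes split into groups. Clec4f, Timd4 and Cd163 were at most at 30.4, 19.4 and 7.92 CPM in any other KLF2 macrophage-like sub-cluster of 20 or more cells. Marco was at 155 and 213 CPM in the Saa3 sub-cluster, which also expressed Arg1, Fn1 and Thbs1 and held 194 and 63 cells, and at 125 and 2.36 CPM in the Mmp12 and Spp1 sub-cluster. Folr2 was at 66.1 and 118 CPM in the Saa3 sub-cluster and at 55.8 and 29.1 CPM in the Ccl8 sub-cluster. Slc40a1 was low in the Saa3 sub-cluster, at 7.99 and 4.15 CPM, at 39.5 and 44.9 CPM in the Mmp12 and Spp1 sub-cluster, and at 122 and 37.6 CPM in the Lrmda sub-cluster.

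Hmox1 followed another order. It was at 1901 and 1212 CPM in the Mmp12 and Spp1 sub-cluster and at 1487 and 894 CPM in the Saa3 sub-cluster, against 1036 and 368 CPM in the Fcna/C6 sub-cluster. In the Ccl8, Ccl12 and Lrmda sub-clusters it lay between 137 and 266 CPM in the KLF2 libraries, and in the Cxcl9 sub-cluster of the vector library it was at 98.6 CPM. The KLF2 libraries differed in makeup here, since the Saa3 sub-cluster held 194 of 442 macrophage-like cells in replicate 1 and 63 of 1209 in replicate 2.

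**Figure D2:**
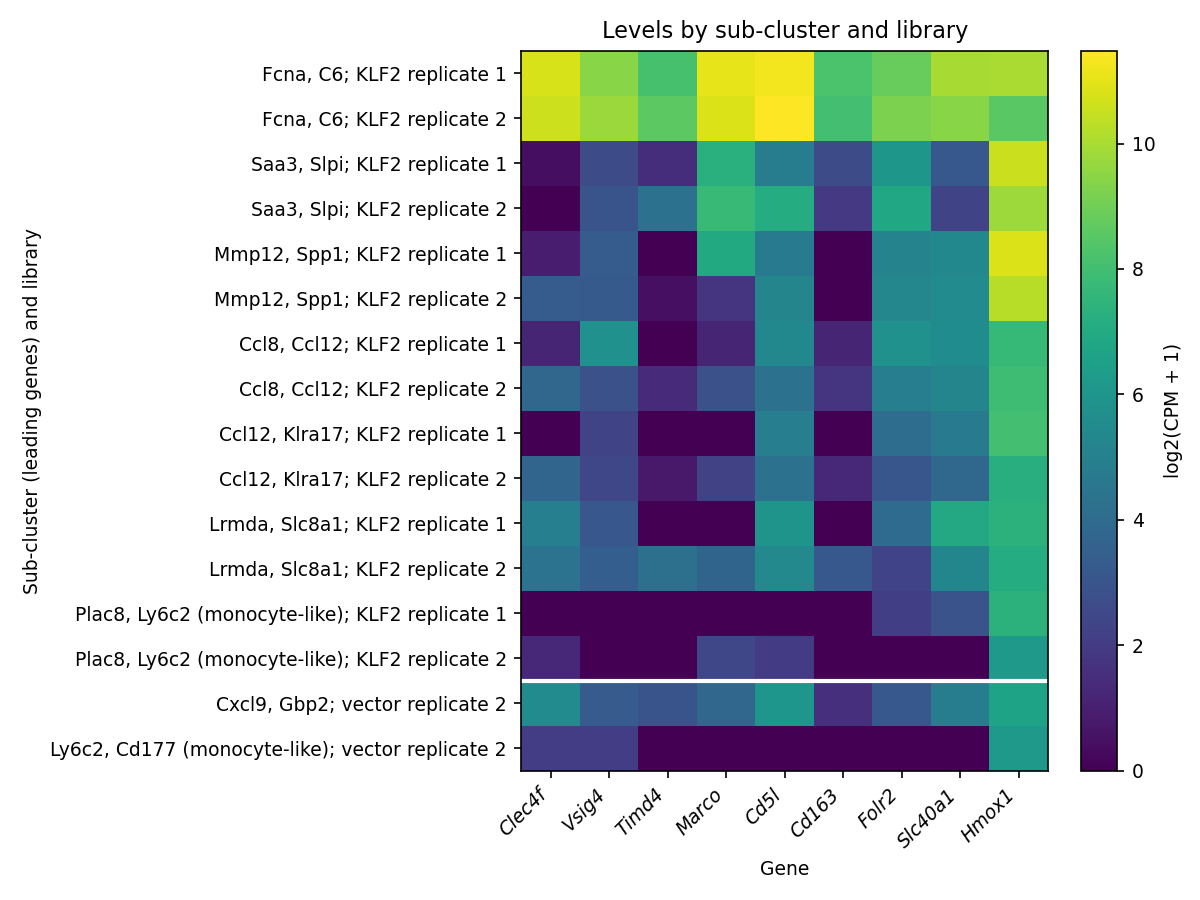
Heat map of log2(CPM + 1) of the 9 genes in each macrophage- or monocyte-like sub-cluster with 20 or more cells, by library, KLF2 libraries above the white line and the vector library below it. Each gene except Hmox1 is brightest in the Fcna/C6 rows, while Hmox1 is brightest in the Mmp12 and Saa3 rows, up to 1901 CPM.

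The fold changes were then taken without the Fcna/C6 sub-cluster, an alternative chosen after the data were seen. Hmox1 (log2 fold change 2.97 ± 0.51, adjusted p 0.00533) and Folr2 (2.16 ± 0.41, 0.00857) remained higher in KLF2, where 11.2% of 12936 genes were higher and 6.32% lower. Clec4f was then at 1.38 and 10.7 CPM in KLF2 cells and 44.9 CPM in vector cells, a log2 fold change of -3.09 ± 0.68, and Cd5l had -1.21 ± 0.29. Marco had 2.11 ± 0.81 and an adjusted p of 0.103, and Vsig4, Timd4, Cd163 and Slc40a1 did not pass, at -0.066, -1.72, -0.055 and -0.26. This comparison is not symmetric, because vector cells that held several of the genes stayed in. The negative values of Clec4f and Cd5l in it therefore cannot be read as lower expression in KLF2 cells. Without the Saa3 sub-cluster instead, all 9 genes were called higher, Clec4f with 1.45 ± 0.27 and Timd4 with 1.81 ± 0.34 (adjusted p 0.00977 and 0.0101), in a fit that called 14% of 11371 genes higher and 9.27% lower. Without both sub-clusters Cd163 was not tested, and of the other 8 genes 2 were higher (Hmox1 and Folr2) and 2 lower (Clec4f and Cd5l), where 15% of 11231 genes were higher and 9.71% lower.

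**Figure D3:**
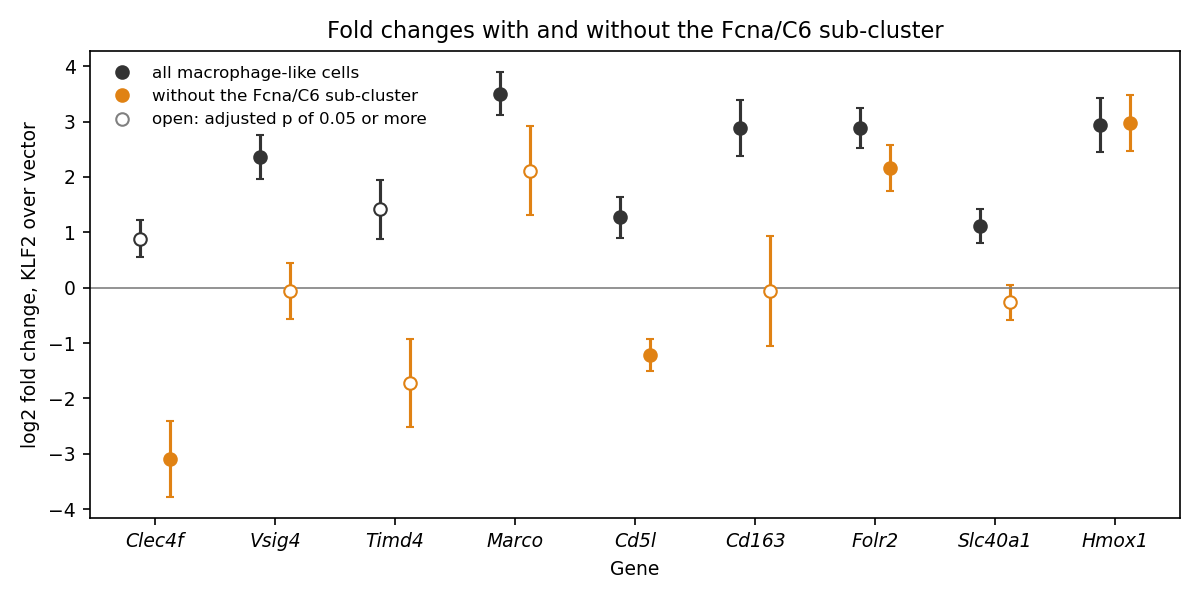
Log2 fold change, KLF2 over vector, of each gene in macrophage-like cells with its SE, in black with all cells and in orange without the Fcna/C6 sub-cluster. Open points have an adjusted p of 0.05 or more. Without the sub-cluster, Hmox1 and Folr2 are at 2.97 and 2.16, and Clec4f and Cd5l turn to -3.09 and -1.21. The orange comparison is not symmetric, because vector cells that held several of the genes stayed in.

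Cells that hold several of the genes occurred in the vector tumour as well. Leaving out the widely used Slc40a1 and Hmox1, cells with UMIs of 4 or more of the other 7 genes were counted without thinning. They were 27 of 442 and 58 of 1209 macrophage-like cells of the KLF2 libraries and 10 of 410 of the vector library. Depth was not made equal here, with medians of 9735.5 and 4836 UMIs against 4365. Of the cells with 4 or more, 26 and 53 lay in the Fcna/C6 sub-cluster in the KLF2 libraries, while all 10 vector cells lay in the Cxcl9 sub-cluster. The 10 vector cells also carried genes not used to pick them. Fcna, a ficolin of the lectin complement pathway, was at 303 CPM in them and at 2.06 CPM in the other vector macrophage-like cells, against 948 and 697 CPM in the KLF2 cells picked alike. C6, the complement component, was at 268 and 308 CPM in the picked KLF2 cells and at 121 CPM, 8 UMIs, in the picked vector cells. Slc40a1 was at 847 and 659 CPM in picked KLF2 cells and at 455 CPM in picked vector cells, and at 27.5 and 33.7 CPM in the other KLF2 cells and 16.5 CPM in the other vector cells. Hmox1 did not follow: it was at 1154 and 349 CPM in picked KLF2 cells and 182 CPM in picked vector cells, and at 1293 and 607 CPM in the other KLF2 cells and 96.3 CPM in the other vector cells. Cxcl13, a B cell chemokine, was at 575 and 333 CPM in picked KLF2 cells and had 0 UMIs in picked vector cells, which allows up to 45.5 CPM. In the others it was at 28.1 and 8.06 CPM in KLF2 and again at 0 UMIs in vector.

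The count of cells with 2 or more of the 9 genes was made after thinning each cell to 1000 UMIs, since depth differed. In macrophage- and monocyte-like cells together, 55 of 492 cells (11.2%, exact binomial 95% interval 8.53 to 14.3) of KLF2 replicate 1, 99 of 1342 (7.38%, 6.04 to 8.91) of KLF2 replicate 2 and 19 of 470 (4.04%, 2.45 to 6.24) of the vector library had 2 or more. Thinning left out 5 vector cells and no KLF2 cell. Unthinned, the shares were 34.8% and 19.2% in the KLF2 libraries and 6.74% in the vector library, at median depths of 8984.5 and 4772 UMIs against 4372. The interval of KLF2 replicate 2 overlapped that of the vector library slightly, and with 1 vector library no test was made. The KLF2 mean was 5.24 percentage points above the vector share, and 3.33 points above it without KLF2 replicate 1. As a background from free RNA, T/NK-like cells, which should lack the genes, gave 0 of 93, 0 of 398 and 1 of 3374 cells in KLF2 replicates 1 and 2 and the vector library, at median depths of 5199, 3335.5 and 2944 UMIs. A count of 0 allows up to 3.23% and 0.754%. Unthinned, 1.08% and 1.01% of T/NK-like cells in the KLF2 libraries and 0.144% in the vector library had 2 or more.

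All these cells were macrophage-like: 0 of 50, 0 of 133 and 0 of 64 monocyte-like cells had 2 or more after thinning, which allows up to 6.00%, 2.26% and 4.69%. In the Fcna/C6 sub-cluster 90.3% and 91.2% of KLF2 cells had 2 or more, and outside it 6.57% and 3.24% of KLF2 macrophage-like cells did, against 4.68% of vector ones. The shares outside it are not symmetric, because vector cells that held several of the genes stayed in. With 4 or more the shares of macrophage- and monocyte-like cells were 4.27% and 3.43% in the KLF2 libraries and 0.851% in the vector library, whose intervals (2.66 to 6.45, 2.52 to 4.55, and 0.232 to 2.16) did not overlap between groups. In the Fcna/C6 sub-cluster Clec4f and Cd5l were found together in 67.7% and 61.8% of thinned cells, where the product of their shares is 64.6% and 61.6%. Over all pairs, co-detection exceeded that product by more than 10 percentage points in 1 pair per library, Slc40a1 with Hmox1 (29.0% against 18.9%) in replicate 1 and Vsig4 with Folr2 (29.4% against 19.1%) in replicate 2.

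**Figure D4:**
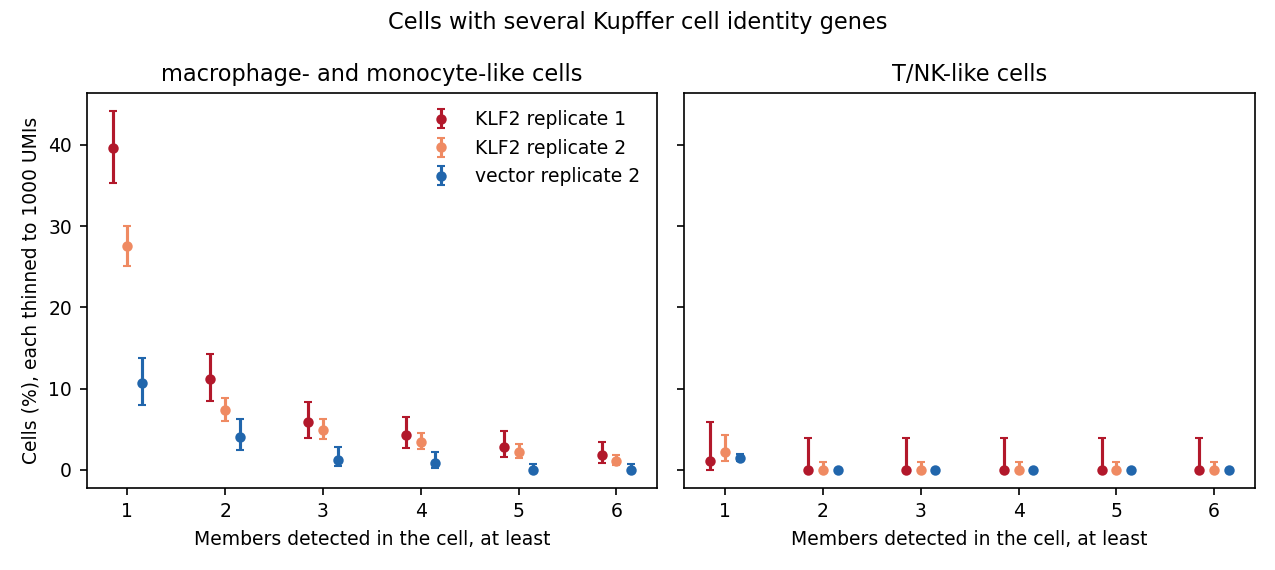
Share of cells, in percent, with at least 1 to 6 of the 9 genes after thinning each cell to 1000 UMIs, with exact binomial 95% intervals, for KLF2 replicates 1 and 2 and vector replicate 2. In macrophage- and monocyte-like cells the KLF2 points lie above the vector point at each count, with 11.2% and 7.38% against 4.04% at 2 or more, and in T/NK-like cells the points lie near 0 from 2 on.

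Across the cell classes the order was read per gene. In the KLF2 libraries each gene was highest in macrophage-like cells among classes of 50 or more cells. Slc40a1 was the closest to a tie, at 71.5 and 77.6 CPM in macrophage-like and 67.1 and 41.8 CPM in neutrophil-like cells, and in the vector library it was at 28.0 CPM in macrophage-like and 64.4 CPM, 9 UMIs, in neutrophil-like cells. KLF2 tumours also held cholangiocyte-like cells with Slc40a1 at 47.4 and 27.1 CPM, and endothelial-like cells had 27.9 and 28.5 CPM in KLF2 and 2.36 CPM in vector. Hmox1 in neutrophil-like cells was at 254 and 127 CPM in KLF2 tumours and at 64.4 CPM in the vector tumour. Timd4 in dendritic-like cells was at 17.1 and 1.37 CPM in KLF2 tumours and at 32.0 CPM in the vector tumour, with the 7, 1 and 7 UMIs each from 1 cell.

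The genes most like the summed 9 over 30 class and library sums were Sdcbp (Pearson r 0.88), Ctsb (0.87), Ftl1 (0.84), Atp6v0c (0.84), Clec4n (0.84), Cd14 (0.83), Nampt (0.83) and Gpnmb (0.83), of 3653 genes compared. Without Slc40a1 and Hmox1, a choice made after seeing the data, they were Mmp12 (0.95), Pf4 (0.93), Gpnmb (0.83), Lgmn (0.75), Trem2 (0.75), Ctsb (0.74), Msr1 (0.72) and Ccl7 (0.72). The 3653 genes did not include the cell type markers, so macrophage markers such as C1qa could not appear. Predicted, mitochondrial and ribosomal protein genes and genes with a mean under 30 CPM were also left out. The points share libraries, and most of the range is macrophage-like cells against the rest.

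Other genes of the Kupffer cell and its tasks were taken from lists, in the same fit over macrophage-like cells, where 12.5% of all genes were higher and 7.27% lower. Of 15 other Kupffer cell genes, 7 were higher in KLF2 and 1 lower, with a median log2 fold change of 1.47. Fcna was at 124 and 71.9 CPM in KLF2 and at 10.0 CPM in vector cells (log2 fold change 2.98, adjusted p 0.00134), C6 had 2.05 (0.0150) and Xlr 2.64 (0.0438). The value of Xlr rests on 0.801 CPM in vector cells. Cdh5, a cadherin that endothelium also expresses, was the gene that was lower. Of 11 transcription factors of Kupffer cells, 2 were higher and 3 lower, with a median of 0.08. Nr1h3, which encodes the liver X receptor alpha, was at 24.5 and 26.9 CPM in KLF2 and at 80.1 CPM in vector cells (-1.94, adjusted p 0.000935), while Id1 (1.69, 0.00777) and Rxra (1.40, 0.0106) were higher. In the cells picked for 4 or more of the 7 genes, Nr1h3 was at 185 and 184 CPM in KLF2 and at 106 CPM in vector, and in the others at 15.4 and 15.1 CPM in KLF2 and at 79.4 CPM in vector.

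Of 18 haem and iron genes 3 were higher (16.7%) and 1 lower (5.56%), near the shares over all genes, with a median of 0.42. Fth1, the ferritin heavy chain, was at 19202 and 13008 CPM in KLF2 and at 3631 CPM in vector cells (1.84, adjusted p 0.00569), followed by Ncoa4, which delivers ferritin for breakdown (1.26, 0.0313), and Hebp1 (1.21, 0.0317). Of 14 tested scavenger and efferocytosis receptors 7 were higher and 1 lower, with a median of 1.07. They included Olr1 (6.75, adjusted p 0.000307), Colec12 (3.15, 0.0214) and Itgam (2.62, 0.00509), Olr1 resting on 0.401 CPM in vector cells. Of 10 tested NRF2 targets 4 were higher and 0 lower, with a median of 0.88, among them Slc7a11, the cystine importer (2.50, 0.00129), Srxn1 (1.39, 0.0146) and Gclm (1.23, 0.0294). Hmox1 is itself known as an NRF2 target.

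Of 11 liver X receptor targets 3 were higher and 1 lower, with a median of 0.11: Abca1, the cholesterol exporter (3.33, adjusted p 0.000210), and Scd2 (2.72, 0.000636) were higher, and Nr1h3, also on this list, was lower. Of 12 lipid-associated macrophage genes 5 were higher and 0 lower, with a median of 1.00. Spp1, osteopontin, was at 3065 and 3241 CPM in KLF2 and at 61.7 CPM in vector cells (5.37, adjusted p 3.29e-05), with Gpnmb (2.59, 0.00207) and Syngr1 (2.15, 0.00285) after it. Of 12 monocyte genes 2 were higher and 3 lower, with a median of 0.30. Ly6c2, a marker of inflammatory monocytes, was lower (-2.01), and Fn1 (4.69) and F13a1 (2.98) were higher. The KLF2 replicates differed widely, with Fn1 at 1451 and 348 CPM and F13a1 at 149 and 40.2 CPM. Vector cells had 28.0 and 9.61 CPM. The 12 genes of this list are also the monocyte markers that named the classes, so the naming bears on their levels here. Of 11 tested niche signals 1 was higher and 3 lower, with a median of 0.53: Hes1, a Notch target, was higher (2.41, 0.00232), and Dll4, a Notch ligand (-3.25, 0.0139), and Tgfb1 (-1.51, 0.00350) were lower.

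Other measures moved with the groups. Of 20 genes known to respond to tissue dissociation, 7 were higher in KLF2 and 0 lower, with a median of 1.04, led by Ier3 (3.04, adjusted p 0.00134), Fos (1.55, 0.00839) and Nr4a1 (1.51, 0.00980). The median mitochondrial share of macrophage-like cells was 0.326% and 0.450% in KLF2 tumours and 10.6% in the vector tumour. Markers of other cells in macrophage-like cells summed to 43.8 and 394 CPM in KLF2 and 709 CPM in vector for T and NK cells (9, 12 and 11 of 12 detected, with Cd3d, Trac and Ncr1 at 0 in KLF2 replicate 1 and Ncr1 in vector), to 57.3 and 66.7 against 188 CPM for endothelium (12 of 12 detected in each), and to 80.7 and 221 against 1.60 CPM for cholangiocytes (8, 8 and 2 of 8 detected, Krt19 and Sox9 at 0 in vector). Erythroid markers summed to 16.7 and 22.6 CPM in KLF2 and to 89.3 CPM in vector cells (4, 5 and 5 of 5 detected, Alas2 at 0 in KLF2 replicate 1). Their part in the results was not tested. With mitochondrial genes and Gm42418 left out, 7 of the 9 genes were called higher, where 12.1% of 13155 genes were higher and 7.73% lower. With at most 10% mitochondrial UMIs per cell all 9 were, where 12.9% of 12992 genes were higher and 6.99% lower.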

How the data were processed

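Single-cell libraries of dissociated mouse liver tumours were made with the DNBelab C Series kit, per the labels' protocols, from mice handled one by one. The authors deposited whole-number UMI count matrices, written by PISA 1.0 per the file headers. The submitters' processing notes name the build GRCm38, and no source used here gives the aligner, annotation or cell calling. The 9 genes and the gene lists were chosen with earlier results of these data known.

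A barcode was kept if it had 300 or more genes and if mitochondrial transcripts made up no more than 25% of its UMIs. Cells were clustered with scanpy 1.11.5 and leidenalg 0.10.2 (2000 variable genes without the 9 genes, mitochondrial genes and Gm42418; 30 components, 15 neighbours, resolution 1.0), and myeloid clusters were clustered again. Clusters were named "X-like" from fixed markers, so names are rebuilt and not the authors'. No doublet caller was run, and no correction for differences between libraries was made. Sub-clusters stayed unnamed where many of their leading genes were higher in a cluster outside the myeloid family. The sub-cluster with most vector monocyte-like cells was named, although haemoglobin genes were among its leading genes. Pairs of libraries shared 427 to 1289 barcode names, which are running numbers. In the 3 pairs with matrices, 0, 0 and 1 shared names had the same UMI total.

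Counts were summed per library and class and tested with edgeR 4.0.16 (TMM, quasi-likelihood, Benjamini-Hochberg, threshold 0.05). Tools used beside it were R 4.3.3, limma 3.58.1, DESeq2 1.42.0, python 3.11.15, numpy 2.4.6 and scipy 1.17.1. On simulated counts of the macrophage-like comparison (12929 genes), 87% of genes changed 4-fold and 99% of those changed 16-fold were recovered. The changed genes were drawn above a minimum count, and the spread between libraries was a fixed value, not that of the data. These rates do not cover genes of lower count or a larger spread. Intervals are exact 95% binomial or Poisson intervals, cover counting error only, and a count of 0 is given as up to 3 counts. Named genes were the 9 genes, up to 3 genes per list with the largest called change, and the 8 genes most like the summed 9. Alternatives covered the scaling, the test, the filters, depth, clustering and each KLF2 replicate.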

Additional observations from a re-analysis of the deposited data

Results flagged for a closer look

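Barcodes removed by the filter were not used in any comparison. Of these, 2.74% in KLF2 replicate 1 (2 of 73) and 1.46% in KLF2 replicate 2 (2 of 137) had 2 or more of the 9 genes, above the 0.225% (10 of 4449) in the vector library. Median depth of these barcodes was 2005 and 2180 UMIs in the KLF2 libraries and 1281 UMIs in the vector library. Of myeloid cells left without a name, 1.88% (4 of 213) in KLF2 replicate 2 had 2 or more after thinning, above the 0.0833% (1 of 1200) in the vector library, and 0 of 37 had in KLF2 replicate 1. These differences were not tested.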

How the results depend on the processing

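The 9 genes kept a positive log2 fold change in macrophage-like cells under the alternatives of scaling, test, filter, depth, clustering and left-out replicate. In all, 7 of 9 were called, and 4 after thinning each cell to 1000 UMIs (10.1% of 5682 genes higher), where the median fell to 1.77. Both classes together gave 8, and 4 after thinning (10.2% of 6249 genes higher). Of 13034 genes 2577 were called, against 1016 of 11526 with DESeq2's Wald test, 893 of 21557 without the low-count filter, 995 of 5682 after thinning and 1097 of 13031 at sub-clustering resolution 1.5. Without the filter the median log2 fold change of all genes was 0.71, against 0.15. Leaving out 1 KLF2 replicate gives 1 library against 1 and no test. The median of the 9 genes was then 2.02 to 2.36, Timd4 was 0.71 to 1.88, Clec4f 0.62 to 1.18, Cd5l 0.89 to 1.64 and Hmox1 2.36 to 3.40, and Hmox1 in monocyte-like cells was -0.046 to 0.95 (-0.26 at resolution 1.5). The difference in the share of cells was 3.33 to 7.14 percentage points.

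Without the Fcna/C6 sub-cluster, chosen after seeing the data, the median was -0.066: Clec4f was -3.09, Vsig4 -0.066, Timd4 -1.72, Cd5l -1.21, Cd163 -0.055 and Slc40a1 -0.26. Without the Saa3 sub-cluster as well, where Cd163 was not tested, the median was 0.28, and Clec4f was -2.69, Timd4 -2.50 and Cd5l -1.42. Vector cells that held several of the genes stayed in both comparisons. The negative values therefore cannot be read as lower expression in KLF2 cells.

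The shares of cells with 2 or more genes in KLF2 replicates 1 and 2 and the vector library were 6.50%, 5.14% and 2.32% thinned to 500 UMIs and 34.8%, 19.2% and 6.74% unthinned, a difference of 20.2 percentage points. With 3 or more genes they were 5.89%, 4.92% and 1.28%, and with 7 genes, without Slc40a1 and Hmox1, 6.71%, 5.51% and 2.13%. Outside the Fcna/C6 sub-cluster the KLF2 shares were 6.57% and 3.24%, and the difference was 0.226 points. That comparison is not symmetric, because vector cells that held several of the genes stayed in. The cause of the changes between these settings was not tested, beyond fewer UMIs or cells by construction. Monocyte-like cells could not be fitted at 10% mitochondrial UMIs or resolution 0.5, with under 50 cells in a library. No paired analysis was possible because the groups with a count matrix share only replicate number 2.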
